A study of Mus musculus with 8 samples.

Results

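The interleukin-1 and interleukin-18 genes compared here are the agonists Il1a, Il1b and Il18, the soluble antagonists Il1rn and Il18bp, the signalling receptor Il1r1 with its co-receptor Il1rap, and the decoy receptor Il1r2. They were chosen by gene symbol, and all 8 were among the 14980 genes of the count table and passed the filter on low counts, as did 14184 genes in all. The labels describe the RNA as that of macrophages of the colonic lamina propria, gated as MHCII+ CD64+ and divided by GPR35, of 4 male mice. Markers of other cell types in both groups are given below. Each animal gave 1 GPR35-positive and 1 GPR35-negative library, so there were 4 libraries in each group, and animals are numbered here by the replicate number that both of their libraries carry. The labels used here name no strain, genotype, treatment or age, and no pooling of animals.

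Interleukin-1 alpha and beta both signal through IL1R1 paired with the accessory protein IL1RAP, and from there through MyD88 and IRAK kinases to NF-kB. The receptor antagonist IL-1RN occupies IL1R1 without recruiting IL1RAP, while IL1R2 binds the agonists but has no signalling domain. Interleukin-18 uses its own receptor pair and is held back by the secreted binding protein IL18BP. Macrophages are a main source of interleukin-1 beta in the gut. Its precursor must be cut, for example by caspase-1, before it is active, so transcript counts do not measure the active cytokine.

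The sort was visible in the receptor used for it, with Gpr35 at 73.3 ± 14.9 CPM (TMM-scaled counts-per-million) in the positive and 2.96 ± 1.46 CPM in the negative libraries (SD, n = 4), a log2 fold change of 4.6 (edgeR adjusted p = 1.07e-04). Library totals were 33769639 to 48599893 counts in the positive and 15996622 to 30066596 counts in the negative group. All 20 macrophage identity markers were detected in the table and were higher in GPR35-positive cells, with summed levels of 47080 to 55220 CPM against 5041 to 23200 CPM. The 14 B and plasma cell markers summed to 74070 to 144700 CPM in the negative libraries and 1394 to 2838 CPM in the positive ones. The 15 stromal and endothelial markers summed to 5832 to 11040 CPM and 1008 to 2170 CPM, respectively, and the part of these other cells in the differences below was not tested. In bulk RNA a smaller number of macrophages and less RNA per macrophage cannot be told apart. Fold changes below are given after trimmed-mean (TMM) scaling. For interleukin-1 pathway genes and lists whose call or direction changed, values after another scaling are given too. It divides by the geometric mean of those 20 identity genes in each library (identity scaling). Marker lists and non-coding genes are given with TMM scaling only, although calls in the marker lists also changed with identity scaling. Identity scaling moved the median log2 fold change of all genes from -0.05 to -2.71.

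The interleukin-1 agonists and antagonists Il1a, Il1b, Il1rn and Il1r2 were 14.2-fold to 22.4-fold higher in GPR35-positive cells, and Il1r1 was lower. These 4 higher and 1 lower calls among the 8 genes (edgeR adjusted p below 0.05) compare with 18.5% of the 14184 genes tested called higher, 19.5% called lower and 38% called in either direction. The CPM ranges of the groups lay apart for the same 4 as higher and the same 1 as lower, against 21.5% of all genes tested as higher, 20.6% as lower and 42.1% in either direction. In 7 of the 8 genes the 4 animals shared 1 direction, as did 58.8% of all genes tested. The median log2 fold change was 2.71 over the 8 and -0.05 over all genes tested.

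With the animal as a replicate block, 5 of the 8 were called higher and 1 lower, where 19.4% of all genes tested were higher, 20% lower and 39.4% either. With identity scaling, 4 were higher and 3 lower, where 0.458% of all genes tested were higher, 87.4% lower and 87.8% either. Those 4 were again Il1b at 2.27 ± 0.44 (SE; edgeR adjusted p = 9.11e-05), Il1a at 1.67 ± 0.47 (2.36e-03), Il1rn at 1.45 ± 0.47 (6.64e-03) and Il1r2 at 1.22 ± 0.53 (0.0366). Il1r1 stood at -5.34 ± 1.03, and Il1rap (-1.93, edgeR adjusted p = 2.86e-03) and Il18 (-2.36, 3.05e-04) were called lower. Il18bp was at -0.67 (0.351).

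**Figure D1:**
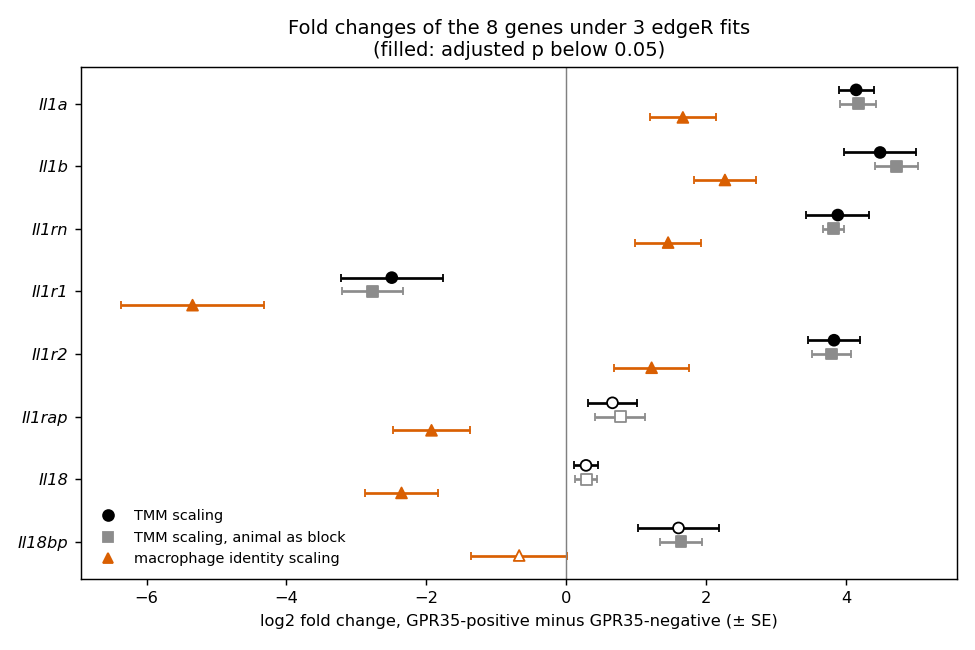
Log2 fold change with its SE for each of the 8 genes (GPR35-positive minus GPR35-negative, n = 4 in each group) under TMM scaling, TMM scaling with the animal as block, and identity scaling. Filled symbols have an edgeR adjusted p below 0.05. Il1a, Il1b, Il1rn and Il1r2 stay above 0 in all 3 fits, and Il1rap, Il18 and Il18bp change sign with identity scaling.

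The 3 members on chromosome 2 that were higher in GPR35-positive cells, Il1a, Il1b and Il1rn, are shown by the 250 bases before their first listed RefSeq transcript start (GRCm38.p6, minus strand for Il1a and Il1b, plus strand for Il1rn). The windows are chr2:129309973-129310222, chr2:129371140-129371389 and chr2:24336610-24336859. They are shown because these genes moved together, and because Il1a and Il1b are neighbours with 54.4 kb between them while Il1rn lies 105 Mb away. Capitals mark matches to the PU.1 core GAGGAA, the AP-1 motif TGANTCA and the TATA box TATAAA.
Il1a: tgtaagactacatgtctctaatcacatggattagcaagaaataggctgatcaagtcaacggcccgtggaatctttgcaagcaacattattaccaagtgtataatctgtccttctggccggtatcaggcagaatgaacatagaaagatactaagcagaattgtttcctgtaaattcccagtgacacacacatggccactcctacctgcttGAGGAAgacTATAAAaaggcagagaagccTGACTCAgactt
Il1b: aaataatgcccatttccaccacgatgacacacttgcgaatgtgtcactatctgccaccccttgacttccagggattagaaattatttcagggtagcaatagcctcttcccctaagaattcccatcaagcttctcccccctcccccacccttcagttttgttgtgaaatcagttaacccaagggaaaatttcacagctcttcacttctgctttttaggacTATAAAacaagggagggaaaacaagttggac
Il1rn: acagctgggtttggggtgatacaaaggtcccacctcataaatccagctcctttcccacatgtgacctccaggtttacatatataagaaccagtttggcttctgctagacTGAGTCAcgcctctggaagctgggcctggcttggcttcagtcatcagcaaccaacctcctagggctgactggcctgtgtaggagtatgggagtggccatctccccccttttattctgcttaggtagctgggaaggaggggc
The TATA box began 32 bases before the start of Il1a and 31 bases before that of Il1b, and none was matched in the first Il1rn window. AP-1 matches began 12 bases before the start of Il1a and 141 bases before that of Il1rn, and a PU.1 core 41 bases before that of Il1a. Both strands of the windows of 300 bases, which run to 50 bases past the start, were searched for these motifs, for the C/EBP motif TTGCNNAA and for the NF-kB consensus, and no match overlapped another in the 3 stretches shown. Of all 32851 RefSeq windows of this length, 13.6% held the TATA box, 7.81% the AP-1 motif, 28.3% the PU.1 core, 10.8% the C/EBP motif and 4.51% the NF-kB consensus. The TATA box was added to the search after the sequences had been seen. A match is only a match of letters.

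Both interleukin-1 agonists were among the genes with large differences. Il1b (Entrez gene 16176, chromosome 2, 129364569 to 129371164), the gene of interleukin-1 beta, stood at 4922, 4604, 2989.6 and 3302 CPM in the positive libraries of animals 1 to 4. In the negative libraries it stood at 352, 181, 84.0 and 89.3 CPM. Every positive library was above every negative one. The group means were 3954 ± 951 and 177 ± 125 CPM (SD, n = 4), and the log2 fold change was 4.48 with an SE of 0.52 (edgeR adjusted p = 4.11e-04, n = 4 in each group). By counts per kilobase Il1b ranked between 16 and 25 among all genes in the positive libraries and between 206 and 1174 in the negative ones. It made up 0.284% to 0.434% of all counts of the former, without molecular identifiers to separate PCR copies.

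Il1a (Entrez gene 16175, chromosome 2, 129299609 to 129310186), the gene of interleukin-1 alpha, was at 114, 147, 135 and 169.5 CPM in positive libraries and at 10.7, 8.79, 5.15 and 7.35 CPM in negative ones. The groups again lay wholly apart, at means of 141 ± 23.1 and 8.0 ± 2.34 CPM. Its log2 fold change was 4.14 ± 0.25 (edgeR adjusted p = 2.50e-05), the smallest p of the 8 genes. Unlike Il1b, which is cut by caspase-1, interleukin-1 alpha is active as a precursor. Per kilobase of gene, Il1b exceeded Il1a by 28.5-fold to 63.1-fold in positive and by 17.8-fold to 48.1-fold in negative libraries. The log2 ratio of Il1b to Il1a exceeded that of the negative partner in 4 of 4 animals, by 0.39 to 0.68 and by 0.53 on average. The group ranges overlapped, and the 2-sided exact permutation p was 0.229 (0.229 adjusted over the 4 ratios tested). With signs flipped within animals the exact p was 0.125, the smallest that 4 pairs can give.

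Beside the agonists, both interleukin-1 antagonists were higher in GPR35-positive cells. Il1rn (Entrez gene 16181, chromosome 2, 24336860 to 24351491), the receptor antagonist, was at 491, 412, 178 and 186 CPM in the positive and at 32.8, 23.8, 15.1 and 14.4 CPM in the negative libraries. Animals 1 and 2 were higher than animals 3 and 4 in both populations, and the groups did not overlap. This was a log2 fold change of 3.88 ± 0.45 (edgeR adjusted p = 4.14e-04). Secreted and intracellular forms of the antagonist start at different promoters, and the gene count holds them together.

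Il1r2 (Entrez gene 16178, chromosome 1, 40084692 to 40125230), the decoy receptor, was at 109, 127, 57.9 and 58.0 CPM in positive libraries. In negative libraries it was at 7.85, 5.65, 7.55 and 3.72 CPM, so the groups lay apart here as well. On the log2 scale the difference was 3.83 ± 0.37 (edgeR adjusted p = 1.81e-04). Il1rn and Il1r2 had the most similar profiles to each other. After each gene was centred on its own mean log2 CPM, they differed over the 8 libraries by a root mean square of 0.35, less than either did from any other of the 9406 genes compared with it. Next for Il1rn were Cd300lf (0.38), an inhibitory myeloid receptor, and Tspan33 (0.40), and next for Il1r2 were Jaml (0.39) and Cd300lf (0.41). The genes closest to Il1b were Klra2 (0.37), the chemokine receptor Ccr2 (0.39) and the collagenase Mmp13 (0.40), and those closest to Il1a were Mmp13 (0.24), Amz1 (0.27) and I830077J02Rik (0.33).

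**Figure D2:**
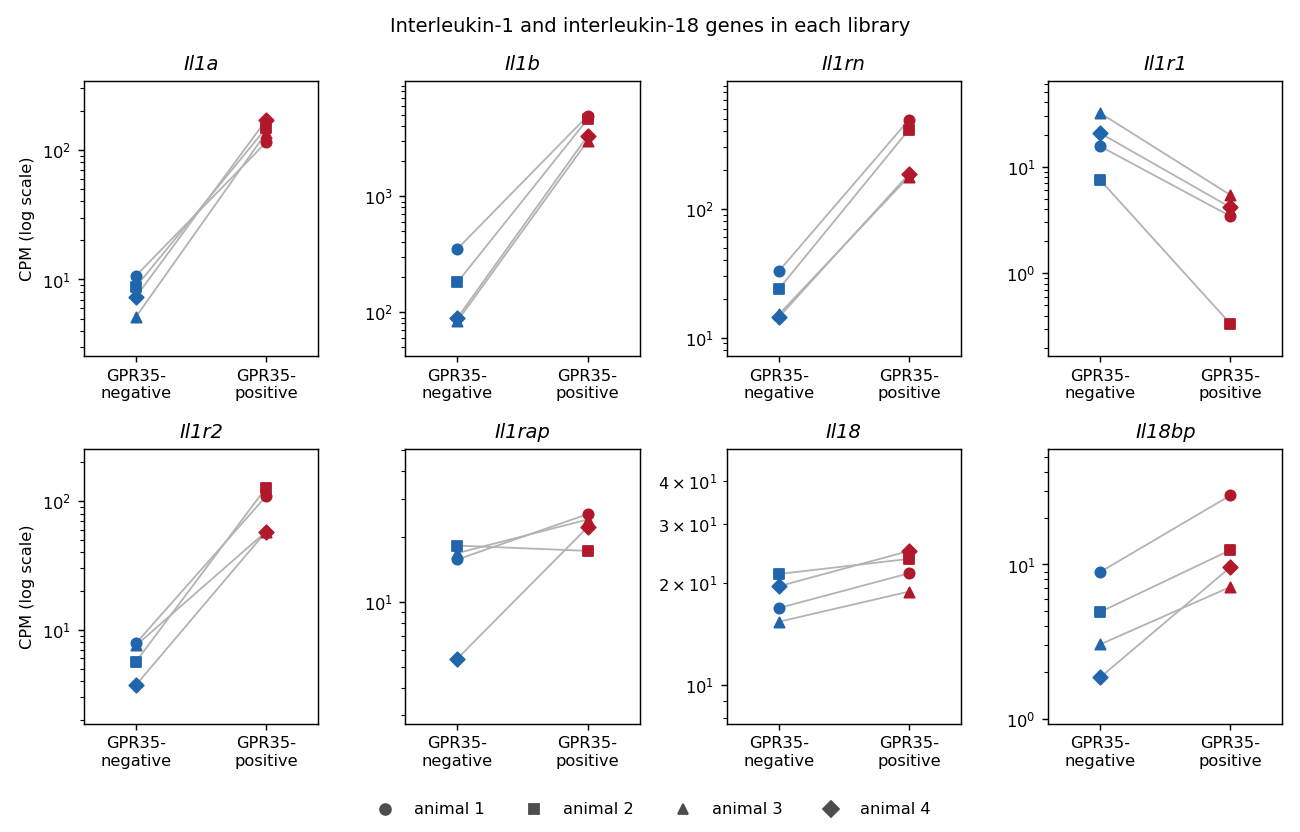
Level of each of the 8 genes in CPM (log axis, a separate range in each panel) in GPR35-negative and GPR35-positive libraries. Points are single libraries, symbols are animals and lines join the 2 libraries of an animal. Il1a, Il1b, Il1rn and Il1r2 rise in every animal without overlap of the groups, Il1r1 falls in every animal, and Il1rap, Il18 and Il18bp overlap between groups.

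The signalling receptor ran the other way. Il1r1 (Entrez gene 16177, chromosome 1, 40222480 to 40316201) was at 3.43, 0.335, 5.42 and 4.15 CPM in the positive libraries and at 15.5, 7.49, 31.8 and 20.6 CPM in the negative ones. Every positive library was below every negative one, and positive replicate 2, with 10 counts, was the lowest. Il1r1 had a log2 fold change of -2.50 ± 0.73 (edgeR adjusted p = 0.0256). The call held in 5 of 12 fits that left out an animal or a library. It ended without replicate 1 (adjusted p = 0.0792), 3 (0.0764) or 4 (0.101), without GPR35-positive replicate 1 (0.0650) or 4 (0.0577), and without GPR35-negative replicate 3 (0.0671) or 4 (0.0506), all in edgeR.

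Il1r1 is known from fibroblasts and endothelium, and 12 of the 15 stromal and endothelial genes were also lower in GPR35-positive cells. The median log2 fold change was -3.14 over the 15, and 19.5% of all genes tested were called lower. Dcn, a proteoglycan of fibroblasts, was at 41.2 to 157 CPM in positive and 923 to 1550 CPM in negative libraries. The part of stromal cells in the Il1r1 level was not tested. The 3 genes with the profile most like that of Il1r1 were Arhgap29 (root mean square difference 0.32), Hhip (0.41) and Fbn1 (0.44), the last of which encodes the matrix protein fibrillin-1.

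The co-receptor Il1rap (Entrez gene 16180, chromosome 16, 26581509 to 26730128) did not pass the threshold. It was at 25.4, 17.2, 24.0 and 22.1 CPM in positive and at 15.7, 18.2, 16.8 and 5.48 CPM in negative libraries. The groups overlapped, and negative replicate 4 lay below the others. The log2 fold change of 0.66 ± 0.35 (edgeR adjusted p = 0.161) had a 95% interval of -0.13 to 1.45.

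Decoy and signalling receptor could be set against each other inside each library, where no scaling between libraries enters. Such a ratio does not remove a difference in the mixture of cells, and the part of stromal cells in it was not tested. Per kilobase, Il1r2 exceeded Il1r1 by 119-fold, 1350.3-fold, 40.0-fold and 52.3-fold in the positive libraries of animals 1 to 4. The value of 1350.3 rests on 10 counts of Il1r1. In the negative libraries the ratios were 1.89, 2.83, 0.892 and 0.680. The groups were far apart, and all 4 animals had the higher ratio in the positive library. The mean log2 difference was 6.66, with an SD over animals of 1.53. A 2-sided exact permutation test gave p = 0.0286, the lowest possible for 4 libraries against 4, and 0.114 after adjustment over the 4 ratios. An adjusted p below 0.05 would have needed at least 3 of the 4 ratios at that lowest p. With signs flipped within animals the exact p was 0.125, again the lowest possible.

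The antagonist-to-agonist ratio overlapped between the groups. Counts per kilobase of Il1rn over those of Il1a and Il1b together gave ratios of 0.0492, 0.0439, 0.0289 and 0.0273 in positive and 0.0458, 0.0637, 0.0863 and 0.0765 in negative libraries. The ratio was lower in the positive library of animals 2 to 4 and slightly higher in that of animal 1. The mean log2 difference was -0.87, with an SD over animals of 0.80 (2-sided exact permutation p = 0.0571, adjusted 0.114). Flipping signs within animals gave an exact p of 0.25. In every library the agonists, which here means mostly Il1b, had the higher level per kilobase.

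**Figure D3:**
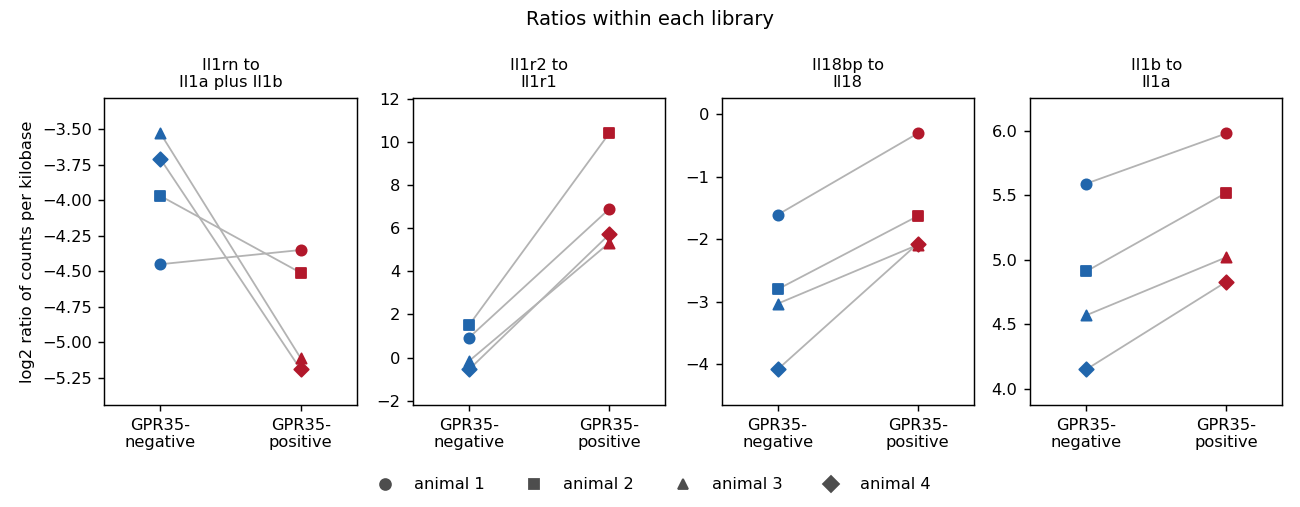
Log2 ratios of counts per kilobase within each library, with symbols for animals and lines joining the 2 libraries of an animal. The ratio of Il1r2 to Il1r1 separates the groups in all 4 animals, by 5.48 to 8.90 on the log2 scale, while the other 3 ratios overlap between groups.

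The interleukin-18 pair differed less. Il18 (Entrez gene 16173, chromosome 9, 50554700 to 50581841) was at 21.4, 23.6, 18.9 and 24.9 CPM in positive and at 16.9, 21.3, 15.4 and 19.6 CPM in negative libraries. The ranges overlapped, although the positive library was the higher of each pair. For Il18 the log2 fold change was 0.28 ± 0.17 (edgeR adjusted p = 0.220), with a 95% interval of -0.11 to 0.67. In positive libraries Il18 varied least among the 8 genes, its highest library being 1.32-fold above its lowest. The genes with the most similar profiles to Il18 were Btf3l4, Med17 and Rab9, at root mean square differences of 0.08 to 0.09. For Il1rap they were Arrb1 (0.08), Clip1 (0.08) and Pcnx3 (0.11). Epithelial cells are a known source of Il18, and the 12 epithelial markers summed to 93.0 to 169 CPM in positive and 206 to 580 CPM in negative libraries. Of these markers 3 were lower in GPR35-positive cells and 9 did not pass, against 19.5% of all genes tested called lower. With the replicate block 5 of the 12 were lower, against 20% of all genes tested. The part of epithelial cells in the Il18 level was not tested.

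Il18bp (Entrez gene 16068, chromosome 7, 102015074 to 102018232), the inhibitor of interleukin-18, was at 28, 12.4, 7.16 and 9.61 CPM in positive and at 8.95, 4.93, 3.04 and 1.86 CPM in negative libraries. Animal 1 had the highest level in both populations, and the groups overlapped through it. The log2 fold change was 1.60 ± 0.58 and did not pass without a block (edgeR adjusted p = 0.0559). With the animal as a replicate block it did, at 1.64 ± 0.29 (edgeR adjusted p = 6.64e-03), and the positive library was the higher of each pair by 2.33-fold to 5.03-fold. The log2 ratio of Il18bp to Il18 was higher by 1.35, with an SD over animals of 0.46, and was higher in 4 of 4 animals (2-sided exact permutation p = 0.114, adjusted 0.152). Flipping signs within animals gave an exact p of 0.125, the lowest that 4 pairs can give. The profiles most like that of Il18bp were those of Plcl2 (0.33), the complement gene Cfb (0.37) and Flcn (0.38).

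Levels relative to the identity genes were also compared animal by animal. Per 1000 CPM of the identity geometric mean, Il1b was at 3777, 3512, 2473 and 2501 CPM in positive and 637, 718, 648 and 547 CPM in negative libraries. In the negative libraries its CPM had spanned a 4.18-fold range, and the identity mean ran from 129.7 to 552 CPM. Il1a was at 87.6, 112, 111 and 128 against 19.4, 34.8, 39.7 and 45.0 on the same scale. Both agonists were thus higher relative to the identity genes in all 4 animals, by 1.93 to 2.57 for Il1b and 1.47 to 2.17 for Il1a on the log2 scale.

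For Il1rn the same difference was 2.66 and 1.73 in animals 1 and 2 but 0.34 and 0.67 in animals 3 and 4. For Il1r2 it was 2.55 and 2.10 in animals 1 and 2, -0.29 in animal 3 and 0.92 in animal 4. The 2 groups overlapped for Il1r2 on this scale, since negative replicate 3 stood at 58.2 and positive replicates 3 and 4 at 47.9 and 43.9. No test of a difference between animals is possible with 1 pair in each.

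**Figure D4:**
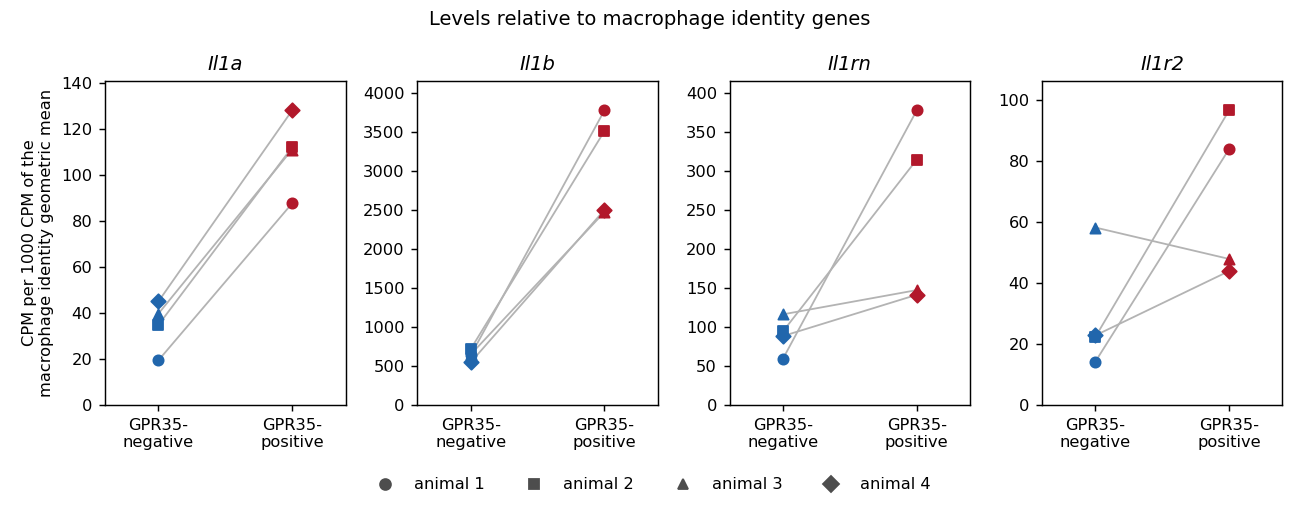
CPM of 4 genes per 1000 CPM of the geometric mean of 20 macrophage identity genes, on linear axes from 0. Symbols are animals and lines join the 2 libraries of an animal. Il1a and Il1b are higher in the positive library of every animal, and Il1r2 is lower in the positive library of animal 3.

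Neutrophils and dendritic cells also transcribe several of these genes. Of the 14 neutrophil markers 9 were in the table, with summed levels of 148 to 200 CPM in positive and 31.4 to 214 CPM in negative libraries. With 18.5% of all genes tested called higher, 2 of the 8 tested markers were higher in GPR35-positive cells and 6 did not pass. The higher ones were Csf3r (103 to 159 against 8.39 to 57.6 CPM), which monocytes also express, and the collagenase Mmp8 (2.52 to 4.76 against 0 to 0.397 CPM). Mmp9 was at 19.1 to 58.0 CPM in positive and 12.5 to 178 CPM in negative libraries and did not pass. S100a8 (0.195 to 1.14 CPM), S100a9 (0.268 to 1.20 CPM) and Cxcr2 (0 to 0.244 CPM) were at or near 0 in the positive libraries. The 12 dendritic cell markers summed to 1648 to 1862 CPM in positive and 229 to 756 CPM in negative libraries, and 4 of them were higher while 8 did not pass. Most of the positive sum was Sirpa, at 1130 to 1550 CPM in positive and 91.7 to 634 CPM in negative libraries. Sirpa is also 1 of the 20 macrophage identity genes, and it was 1 of the 4 called higher. The others of these 4 were Cd209a (29.0 to 257 against 4.43 to 10.5 CPM, a log2 fold change of 4.70), Batf3 (2.40) and Clec10a (1.60). Of all genes tested 18.5% were called higher. The part of neutrophils and dendritic cells in the differences of the 8 genes was not tested.

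Per length, so that genes can be compared, Il1b led the 8 genes in the positive libraries at a mean of 2933 CPM per kilobase. Il1rn followed at 118, Il1a at 71.6, Il1r2 at 65.4, Il18 at 25.7, Il18bp at 10.2, Il1rap at 2.61 and Il1r1 at 0.66 CPM per kilobase. The ranges of Il1rn, Il1a and Il1r2 overlapped, at 66.1 to 182, 57.8 to 85.9 and 43.1 to 94.2 CPM per kilobase. In the negative libraries Il1b (131 CPM per kilobase) was followed by Il18 (21.1), and the other 6 genes had means of 1.66 to 7.99 CPM per kilobase. Il1r1 ranked last in the positive group and sixth in the negative one by these means.

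Neighbouring genes of the receptor cluster differed in direction. Il1r2, Il1r1, Il1rl2, Il1rl1, Il18r1 and Il18rap lie in that order within 467 kb of chromosome 1. Il1rl2, the interleukin-36 receptor, was higher in GPR35-positive cells (16.7 against 3.67 CPM, a log2 fold change of 2.17 ± 0.52; edgeR adjusted p = 0.0110). Its adjusted p in edgeR was 0.0560 without replicate 3 and 0.0596 without replicate 4. Il18r1, the ligand-binding chain of the interleukin-18 receptor known from T, natural killer and innate lymphoid cells, was lower (0.441 against 4.54 CPM; -3.35 ± 0.55, adjusted p = 2.09e-03). Il18rap (0.98 ± 0.51, adjusted p = 0.154) and the interleukin-33 receptor Il1rl1 (-0.43 ± 0.92, adjusted p = 0.736; 0.30 with the replicate block) did not pass. The 14 tested T and innate lymphoid markers summed to 217 to 242 CPM in positive and 420 to 658 CPM in negative libraries. Most of the positive sums was Cd4, at 158 to 173 CPM. Most of the negative sums was Cd28 (209 to 305 CPM) and Cd2 (82.8 to 182 CPM), while Cd3e was at 1.30 to 9.51 CPM. Of the 14 markers 9 were lower and 1, Cd4, which gut macrophages also carry, was higher (1.83). Over all genes tested 19.5% were lower and 18.5% higher. With the replicate block 5 of the 14 were lower and 2 higher, against 20% and 19.4% of all genes tested. The part of T and innate lymphoid cells in the Il18r1 level was not tested. With identity scaling Il1rl1 was called lower (-2.60, edgeR adjusted p = 6.34e-03), and Il1rl2 (-0.46, 0.548) and Il18rap (-1.42, 0.0861) did not pass.

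Non-coding genes overlap several members, and the libraries do not mark strand, so reads in the shared stretches cannot be told apart. Il1bos overlaps Il1b and stood at 10.9 against 0.819 CPM, Gm14023 overlaps Il1a and was at 22.8 against 1.84 CPM, and Gm16894 overlaps Il1r2 and was at 4.93 against 0.355 CPM. All 3 were named after their values were seen. Their log2 fold changes of 3.71 ± 0.91, 3.61 ± 0.48 and 3.77 ± 0.57 ran with those of the genes they overlap.

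Other ligands and receptors of the family were mostly low. Of 17 symbols looked up, some of them older names, 7 were in the table and 6 were tested. Of these Il1rl2 was higher, 3 were lower and the median log2 fold change was -1.5. With identity scaling 0 were higher and 4 lower, at a median of -3.95. Among all genes tested 18.5% were higher and 19.5% lower, and 0.458% and 87.4% with identity scaling. Il33, the alarmin of stromal and epithelial cells, was lower (1.58 against 12.8 CPM; -3.02 ± 0.57, edgeR adjusted p = 3.95e-03), as was Sigirr, an inhibitory receptor of the family (5.22 against 30.9 CPM; -2.56 ± 0.43, adjusted p = 2.29e-03). The part of stromal and epithelial cells, whose marker values are given above, was not tested.

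Of the 16 tested genes of precursor cleavage and release, 8 were higher and 3 lower in GPR35-positive cells, at a median of 0.82. With identity scaling 1 was higher and 11 lower. The shares over all genes tested were 18.5% higher and 19.5% lower, and 0.458% and 87.4% with identity scaling. Mefv, which encodes the inflammasome sensor pyrin, had means of 128 and 2.40 CPM (5.72 ± 0.88, edgeR adjusted p = 1.57e-03), and it alone of the list stayed higher (3.50). Also higher were the protease Casp8 (0.88 ± 0.14), the gasdermin Gsdme (2.07 ± 0.38), the pore-forming Gsdmd (1.08 ± 0.21) and the DNA sensor Aim2 (1.14 ± 0.23). The rest of the 8 were Nlrp3 (94.8 against 13.6 CPM; 2.80 ± 0.62), Nlrc4 (2.45 ± 0.58) and Ninj1 (0.76 ± 0.23). Of 12 fits that left out an animal or library, Nlrp3 kept its call in 12, Nlrc4 in 11 and Ninj1 in 3. The adaptor Pycard, which joins sensors to caspase-1, was lower (105 against 239 CPM; -1.18 ± 0.15, adjusted p = 7.19e-04). The NLRP3-binding kinase Nek7 (-0.63 ± 0.14) and the channel Panx1 (-0.66 ± 0.17) were lower too, but Nek7 lost its call without replicate 2 (adjusted p = 0.0689) or 3 (0.0669) and Panx1 without replicate 3 (0.105) or GPR35-positive replicate 4 (0.0521). Casp1 itself was at 91.0 against 72.2 CPM and did not pass (0.33 ± 0.14, adjusted p = 0.0896). With identity scaling Casp1 (-2.25, edgeR adjusted p = 1.73e-04), Casp8 (-1.71), Gsdmd (-1.42), Aim2 (-1.44) and Ninj1 (-1.70) were called lower. On that scaling Gsdme (-0.35), Nlrp3 (0.72) and Nlrc4 (0.35) did not pass.

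Of 17 signalling genes between the receptor and NF-kB, 8 were higher and 9 did not pass, at a median of 0.41. With identity scaling 16 were lower. Of all genes tested, 18.5% were called higher and 19.5% lower with TMM scaling, and 0.458% and 87.4% with identity scaling. Those with the smallest p were the kinase Irak2 (134 against 44.4 CPM; 1.59 ± 0.16, edgeR adjusted p = 1.86e-04), the adaptor Myd88 (1.61 ± 0.19), Irak4 (1.41 ± 0.20), the ubiquitin ligase Peli1 (0.71 ± 0.12) and the kinase Ikbkb (1.48 ± 0.26). With identity scaling Irak2 (-0.97, edgeR adjusted p = 0.0487), Irak4 (-1.16), Peli1 (-1.93) and Ikbkb (-1.05) were called lower, and Myd88 (-0.92, 0.0539) did not pass. Of 10 inhibitors of this signal 6 were higher and 4 did not pass, at a median of 0.62, and with identity scaling 7 were lower. With the replicate block 8 were higher, as Tollip (edgeR adjusted p = 0.0360) and Nfkbia (0.0415) also passed. The 6 included the TNFAIP3 partner Tnip3 (2.97 ± 0.26), the RNase Zc3h12a (2.19 ± 0.29), the phosphatase Dusp1 (1.18 ± 0.20), the deubiquitinase Tnfaip3 (1.65 ± 0.30) and Tnip1 (0.65 ± 0.13). With identity scaling Dusp1 (-1.33), Tnip1 (-2.03), Tollip (-2.096) and Nfkbia (-2.115) were called lower, while Tnip3 (0.42), Zc3h12a (-0.31) and Tnfaip3 (-0.88) did not pass.

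Of 14 tested genes known to respond to interleukin-1 in many cell types, 7 were higher and 1 lower, at a median of 1.07. With identity scaling 9 were lower. Among all genes tested 18.5% were higher and 19.5% lower, and 87.4% were lower with identity scaling. Icam1, an adhesion molecule (471 against 179 CPM; 1.4 ± 0.20, edgeR adjusted p = 1.08e-03), and Ptgs2, cyclooxygenase-2 (304 against 37.5 CPM; 3.02 ± 0.53, adjusted p = 2.84e-03), were higher in all 12 fits that left out an animal or library. The chemokine Cxcl1 (1.31 ± 0.31) and the nuclear IkB protein Nfkbiz (1.5 ± 0.44) were higher in the fit of all libraries. In those 12 fits Cxcl1 kept its call in 10 and Nfkbiz in 4, with the largest adjusted p, 0.0656 and 0.0985, each without replicate 4. Ptges, which makes prostaglandin E2, was lower (2.15 against 24.7 CPM; -3.52 ± 0.42, adjusted p = 4.69e-04). With identity scaling Icam1 (-1.18, edgeR adjusted p = 0.0201) and Cxcl1 (-1.10, 0.0206) were called lower, and Ptgs2 (0.53) and Nfkbiz (-0.73) did not pass. The number of response genes called higher fell to 2 without replicate 4, where 1624 of 14233 genes tested were called higher. It was 9, the most among the 12 fits, without GPR35-negative replicate 1, where 2931 of 14385 genes tested were called higher.

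**Figure D5:**
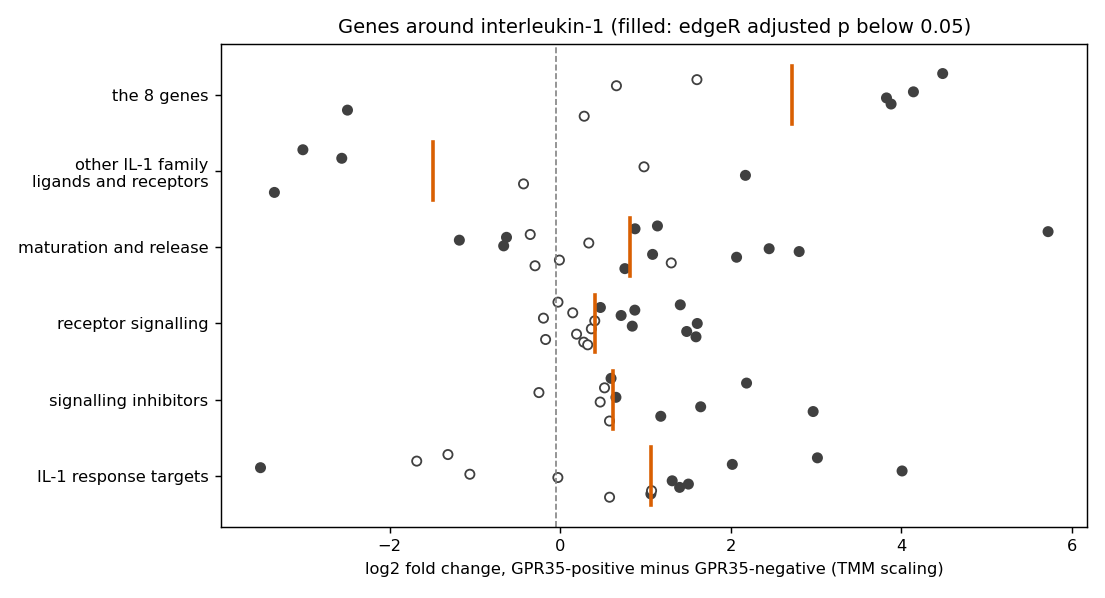
Log2 fold changes (GPR35-positive minus GPR35-negative, TMM scaling) of the tested genes of each list, with filled points for an edgeR adjusted p below 0.05, orange bars for list medians and a dashed line for the median of all genes tested. The 8 genes reach from -2.50 to 4.48, a median of 2.71, and the receptor signalling genes have a median of 0.41.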

How the data were processed

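What was deposited are raw gene counts and a gene length for 8 libraries. STAR 2.5.2a, R 3.4.2 and mm10 appear in the submitters' processing notes; neither the counting tool nor the annotation is given in the sources used here. SMART-Seq v4 and Nextera XT, per the labels' protocols, mark no strand and carry no molecular identifiers. Rows without a symbol (9, with 0.0179% of counts) were left out.

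The deposited counts were tested with edgeR 4.0.16 in R 4.3.3 (filterByExpr, minimum count 10 and minimum total 15; TMM; robust quasi-likelihood F-test without a block). Benjamini-Hochberg adjustment ran over 14184 genes, with a threshold of 0.05. The SE was taken as the log2 difference divided by the root of F. Profiles used log2 CPM with a prior count of 2, for genes with a mean of at least 3. Ratios used a prior of 0.5 counts and exact permutation tests (70 arrangements) in Python 3.11.15. Coordinates and sequences are from RefSeq (GRCm38.p6), where all 8 genes matched by Entrez ID. Alternatives used other scalings and filters, leave-outs, DESeq2 1.42.0 and limma 3.58.1.

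Libraries with the same replicate number come from 1 animal, per the labels. Their deviations from the means of their groups had correlations of 0.206, 0.206, 0.431 and 0.0637 across genes, where the highest with a library of another animal was 0.104, 0.104, 0.237 and 0.237, above its own for replicate 4. No library repeated another (chi-square over degrees of freedom at least 26.6). The members and lists were chosen with earlier results of these data known. Named genes were the 8 members, Gpr35, the receptor cluster, up to 5 genes of smallest p per list and direction past the threshold, and each member's 3 closest profiles. Of these, 1 gene is not reported here. Casp1, Nlrp3, Nlrc4, Ninj1, Tollip, Nfkbia, the marker genes and the overlapping non-coding genes were named outside that rule.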

Additional observations from a re-analysis of the deposited data

How the results depend on the processing

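Il1a, Il1b, Il1rn and Il1r2 kept their direction and call in all 10 other settings of block, scaling, filter and tool, and in the 12 fits that left out an animal or a library, at 3.98 to 4.41, 4.25 to 5.07, 3.59 to 4.17 and 3.60 to 4.09. Leaving out an animal or library, Il1r1 ranged from -2.82 to -2.12 and Il18bp from 1.05 to 2.14, past the threshold in 3 of 12. With the replicate block Il18bp passed (1.64), as it did with DESeq2 (1.58) and with DESeq2 and the block (1.61); the block changed no other call among the 8 genes. With library size only Il18 was at -0.0069. Identity scaling gave -1.93 for Il1rap, -2.36 for Il18 and -0.67 for Il18bp, and -1.68, -2.19 and -0.82 with the replicate block. Stromal scaling, chosen after seeing the data, put Il1r1 at 0.14 (edgeR adjusted p = 0.871). It moved the median of all genes to 2.85 (11161 higher, 182 lower). For this and the other changes the cause was not tested. Over all genes 5386 passed, 2617 higher and 2769 lower. With library size only 1695 were higher and 4191 lower, with identity scaling 65 and 12393 of 12458, and with identity scaling and the replicate block 89 and 11686 of 11775. Leaving out an animal or library gave 3284 (without replicate 3) to 5966, with 1572 to 2931 higher and 1680 to 3035 lower. Log2 differences of the ratios then ranged from -1.20 to -0.64 for Il1rn to agonists and 5.55 to 7.24 for Il1r2 to Il1r1. They ranged from 0.95 to 1.78 for Il18bp to Il18 and 0.32 to 0.79 for Il1b to Il1a. All but Il1b to Il1a passed without GPR35-negative replicate 1 (adjusted p = 0.0381, exact permutation), and none in another case. Without an animal, 3 libraries against 3 have too few arrangements for any ratio to pass. In the other fits a ratio could pass only if at least 3 of the 4 reached the lowest possible p. Response genes called higher numbered 2 to 9 in the 12 fits that left out an animal or library. A low count limits Il1r1, with 10 counts (0.335 CPM) in GPR35-positive replicate 2, where the library total was 33769639.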
